A study of Mus musculus with 3 samples.

Results

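Cacna1e, Cacnb2, Nbea, Adam23, Ptpro and Tamalin are 6 genes known from excitable cells, though not from these alone, that stood out as abundant in Langerhans cells of untreated mouse ear skin. They were 6 of the 34289 features listed for each of 3 single-cell RNA libraries, and they were named for their levels in untreated cells and their lower levels after treatment. Those levels and contrasts are therefore given as descriptions. The share of positive cells, the counts in positive cells and the members detected per cell fall when the level falls. They are descriptions too. The values that did not choose the genes are their unevenness between cells, their pairing within cells, their levels in other cell classes, and their loci and promoters.

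Langerhans cells are the dendritic cells of the epidermis, where they sit between keratinocytes, take up antigen, and leave for lymph nodes when the skin is irritated. They carry langerin (Cd207), the adhesion molecule Epcam and much MHC class II. Voltage-gated calcium channels are built from a pore-forming alpha 1 subunit, which a beta subunit helps to reach the membrane and to open. Around such channels in nerve terminals, membrane-trafficking proteins, adhesion receptors, phosphatases and scaffold proteins place receptors and vesicles at the synapse, and each of these jobs is held by a gene described here.

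All libraries came from ear epidermis of male CD1 mice, and each group was 1 library, so treatment and library cannot be told apart and no test was possible. Untreated mice had received the depilatory Nair alone. The croton oil library came from ears given acetone, croton oil (an irritant) and olive oil, and the microneedle library from ears punched many times with a microneedle array. Cells of the treated ears were taken 48 hours after the first treatment, dissociated with trypsin, cleared of dead cells and enriched for Langerhans cells on magnetic beads. The number of animals per library is not given in the labels. Intervals are 95% and cover counting error only, not differences between animals or preparations.

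The untreated, croton oil and microneedle libraries held 9876, 8241 and 6945 cells, of which 9054, 7626 and 6479 were retained. Langerhans-gated cells had at least 2% of their unique molecular identifiers (UMIs, 1 per captured RNA molecule) in Cd74, H2-Aa, H2-Ab1 and H2-Eb1, and at least 2 UMIs of Epcam. The gate took 8651 untreated, 5921 croton oil and 5295 microneedle cells, and the median cell held 11510, 12571 and 17313 UMIs in that order. Cd207 read 569, 327 and 467 CPM (UMIs of the gene scaled to 1000000 UMIs) in these cells, against 11.5 CPM (croton oil) and 24.9 CPM (microneedle) in neutrophil-gated cells, so the defining marker was present in the gated cells as a whole. A Cd207 UMI was found in 97.3% of untreated gated cells, 76.9% after croton oil and 95.2% after microneedles, unthinned, so some gated cells, most of them after croton oil, showed none. Libraries shared 32 (untreated and croton oil), 17 (untreated and microneedle) and 13 (croton oil and microneedle) cell barcodes. Cells with cell cycle genes made up 15.8%, 12.9% and 26.9% of the gate.

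The word neuron-like describes what the genes are known for and not the cells. Of 14 neuron markers, 11 stayed below 1 CPM in every library, and Nefl, Uchl1 and Calca had no UMI in untreated gated cells. Map2, a microtubule protein, was the only neuron marker to reach 20 CPM, with 63.9 CPM untreated, 16.2 after croton oil and 26.1 after microneedles. It read more outside the gate, with 896 CPM in the untreated MHC class II-low remainder (cells of no class) and 321 CPM in untreated keratinocyte-gated cells. Summed over the list, neuron markers read 69.8, 21.7 and 35.04 CPM. The 6 Merkel cell markers together stayed below 0.3 CPM in each library, with Atoh1 at 0 throughout.

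The members lie on separate stretches of the genome and all but Tamalin are long. On GRCm39, in the GENCODE M39 annotation, Cacna1e spans chr1:154266477-154760247 (minus strand, 494 kb, 47 exons in its canonical transcript). Cacnb2 spans chr2:14607899-14994127 (plus strand, 386 kb, 13 exons) and Nbea spans chr3:55532612-56091178 (minus strand, 559 kb, 58 exons). Adam23 spans chr1:63484875-63635436 (plus strand, 151 kb, 26 exons), Ptpro chr6:137229276-137440263 (plus strand, 211 kb, 27 exons) and Tamalin chr15:101121282-101133129 (plus strand, 11.8 kb, 8 exons). Exons of the canonical transcript made up 1.37% of the Cacnb2 span and 17.5% of the Tamalin span.

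Promoters of the members are shown because the genes were lower together, and they share few letters. RefSeq start sites on GRCm38.p6 gave 7 windows for the 6 genes, 250 bases before to 50 after each start, and Tamalin is listed there as Grasp. Of 8 motifs searched on both strands, the NF-kB letters (GGGA and CC with 4 unspecified bases between) lay in windows of Cacnb2, Ptpro and Tamalin, which is 3 of 7 windows against 20.7% of the 32851 windows of all genes. The TATA box letters TATAAA lay in the Tamalin window alone, against 13.6% of all windows. AP-1 (TGACTCA, 5.20% of all windows), PU.1/ETS (GAGGAAGT, 3.20%), MEF2 (CTA and TAG with 4 unspecified bases between, 3.69%), RUNX (TGTGGTT, 5.27%), IRF (GAAA and GAAA with 2 unspecified bases between, 3.44%) and E-box (CACGTG, 7.15%) letters were in none of the 7. Below are the 250 bases upstream of the listed start for the channel pore gene, which held no match, and for the 3 genes with matches, 5′ to 3′ on the gene's strand, with matches in capitals. The Cacna1e start (GRCm38.p6) was not placed against the 5′ end of the gene on GRCm39. Its window may therefore lie at an internal start and is not shown to be the main promoter. The capitals in Cacnb2 are 2 overlapping matches on opposite strands, and those in Tamalin are a TATA box match, an NF-kB match on the opposite strand and a further TATA box match.
Cacna1e, chr1:154725921-154726170, GRCm38.p6, minus strand: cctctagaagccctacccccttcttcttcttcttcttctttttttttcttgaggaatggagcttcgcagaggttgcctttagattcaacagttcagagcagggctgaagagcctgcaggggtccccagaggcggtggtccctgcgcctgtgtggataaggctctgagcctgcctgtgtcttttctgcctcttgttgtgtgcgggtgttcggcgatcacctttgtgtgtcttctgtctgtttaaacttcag
Cacnb2, chr2:14604056-14604305, GRCm38.p6, plus strand: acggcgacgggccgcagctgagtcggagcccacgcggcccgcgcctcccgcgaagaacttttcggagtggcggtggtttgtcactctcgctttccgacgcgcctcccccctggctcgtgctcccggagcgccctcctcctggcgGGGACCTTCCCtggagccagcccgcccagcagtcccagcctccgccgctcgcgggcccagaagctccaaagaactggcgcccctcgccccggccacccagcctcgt
Ptpro, chr6:137252049-137252298, GRCm38.p6, plus strand: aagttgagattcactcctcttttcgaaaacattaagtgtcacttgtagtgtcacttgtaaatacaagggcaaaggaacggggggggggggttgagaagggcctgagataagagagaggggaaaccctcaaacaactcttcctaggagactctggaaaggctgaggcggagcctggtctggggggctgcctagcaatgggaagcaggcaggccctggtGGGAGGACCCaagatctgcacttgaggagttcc
Tamalin, chr15:101223957-101224206, GRCm38.p6, plus strand: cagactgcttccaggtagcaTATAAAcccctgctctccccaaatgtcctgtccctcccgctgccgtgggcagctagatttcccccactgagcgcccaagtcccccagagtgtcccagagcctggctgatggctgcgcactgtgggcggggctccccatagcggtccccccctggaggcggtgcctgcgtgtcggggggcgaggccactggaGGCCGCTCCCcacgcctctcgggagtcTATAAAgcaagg
G and C bases made up 55.3% of the Cacna1e window, 71.7% of this Cacnb2 window, 54.7% of the Ptpro window and 66.7% of the Tamalin window. The second Cacnb2 window, at an internal start, had 44.0%, and the windows of Nbea and Adam23 had 75% and 70.0%. The median over all windows was 52.7% (quartiles 45.7% and 61.7%). A match is a run of letters and not a shown binding site.

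All 6 genes were lower in both treated libraries than in the untreated library, and the order of the treated libraries differed for Cacnb2. Levels are summed UMIs of the gated cells as CPM, and changes are log2((CPM + 5)/(CPM + 5)). The median change of the members was -1.51 after croton oil and -0.73 after microneedles, while the median over all genes compared was -0.03 and 0.03. After croton oil 4 of 6 members were at least 2-fold lower, where 5.51% of 6837 genes were (377 genes). After microneedles 1 of 6, Cacnb2, was at least 2-fold lower, where 1.75% of 6704 genes were (117 genes). No member was 2-fold higher, where 5.5% and 3.83% of these genes were. The contrasts share the untreated library, and the genes were chosen on them, so nothing is read from these counts against the background.

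Cacna1e encodes the pore-forming subunit of R-type calcium channels, known from neurons and endocrine cells. It read 1058 CPM (1052 to 1065) untreated, 322 CPM (318 to 326) after croton oil and 604 CPM (599 to 609) after microneedles. The untreated level was 3.29-fold (3.25 to 3.33) that after croton oil and 1.75-fold (1.74 to 1.77) that after microneedles. The log2 changes were -1.70 and -0.81, the lowest of the 6 after croton oil, at rank 72 of 6837 genes counted from the most reduced.

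Cacnb2 encodes a beta subunit that carries alpha 1 pores to the membrane and is best known from heart muscle. Its levels were 1325 CPM (1318 to 1332) untreated, 883 CPM (876 to 889) after croton oil and 646 CPM (641 to 652) after microneedles. It was the only member lower after microneedles than after croton oil, with 1.37-fold (1.35 to 1.38) more in the croton oil cells. Its log2 changes were -0.58 after croton oil, the smallest of the 6, and -1.03 after microneedles, the largest, at rank 1123 of 6837 and rank 109 of 6704. The pore and beta subunit genes thus differed in which treated library held the lower level. Antisense transcripts within its introns read at most 35.1 CPM (Gm10848) and 30.4 CPM (Gm13269), both in untreated cells.

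Nbea encodes neurobeachin, a BEACH domain protein that anchors protein kinase A and takes part in membrane traffic to synapses. It read 618 CPM (613 to 622) untreated, 195 CPM (192 to 198) after croton oil and 394 CPM (390 to 398) after microneedles. Changes of -1.64 and -0.64 put it next to Cacna1e after croton oil, while it was among the smaller ones after microneedles. An antisense transcript overlapping its exons, Gm43376, read 13.4, 2.36 and 6.40 CPM.

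Adam23 encodes a transmembrane ADAM protein without protease activity that binds the secreted LGI proteins at synapses. Levels of 427 CPM (423 to 431) untreated, 148 CPM (145 to 150) after croton oil and 228 CPM (225 to 231) after microneedles gave changes of -1.5 and -0.89. Without cells carrying cell cycle genes, the microneedle change was -1.01, past 2-fold.

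Ptpro encodes a receptor tyrosine phosphatase known from podocytes and developing neurons. It read 545 CPM (541 to 549) untreated, 188 CPM (185 to 191) after croton oil and 346 CPM (343 to 350) after microneedles. Its changes, -1.51 and -0.65, were close to those of Adam23 after croton oil and of Nbea after microneedles.

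Tamalin encodes a PDZ scaffold that links metabotropic glutamate receptors to cytohesins. Its levels were 869 CPM (864 to 875) untreated, 457 CPM (452 to 461) after croton oil and 565 CPM (560 to 570) after microneedles. The changes of -0.92 and -0.62 stayed short of 2-fold in both treated libraries, and the microneedle change was the smallest of the 6.

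Set directly against each other, croton oil cells read lower than microneedle cells for 5 members: Nbea (-0.99), Cacna1e (-0.90), Ptpro (-0.86), Adam23 (-0.61) and Tamalin (-0.30). Cacnb2 stood at 0.45 in the other direction. None was 2-fold apart, where 1.04% of 6635 genes were at least 2-fold lower and 1.61% at least 2-fold higher in croton oil cells. Nbea lay close to that line, and it was past it with Epcam at 1 UMI or more, with no Epcam requirement, with MHC class II at 1% or more, with doublets kept or with a pseudocount of 1 CPM. With the mean of per-cell CPM, Cacna1e was past it as well.

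**Figure D1:**
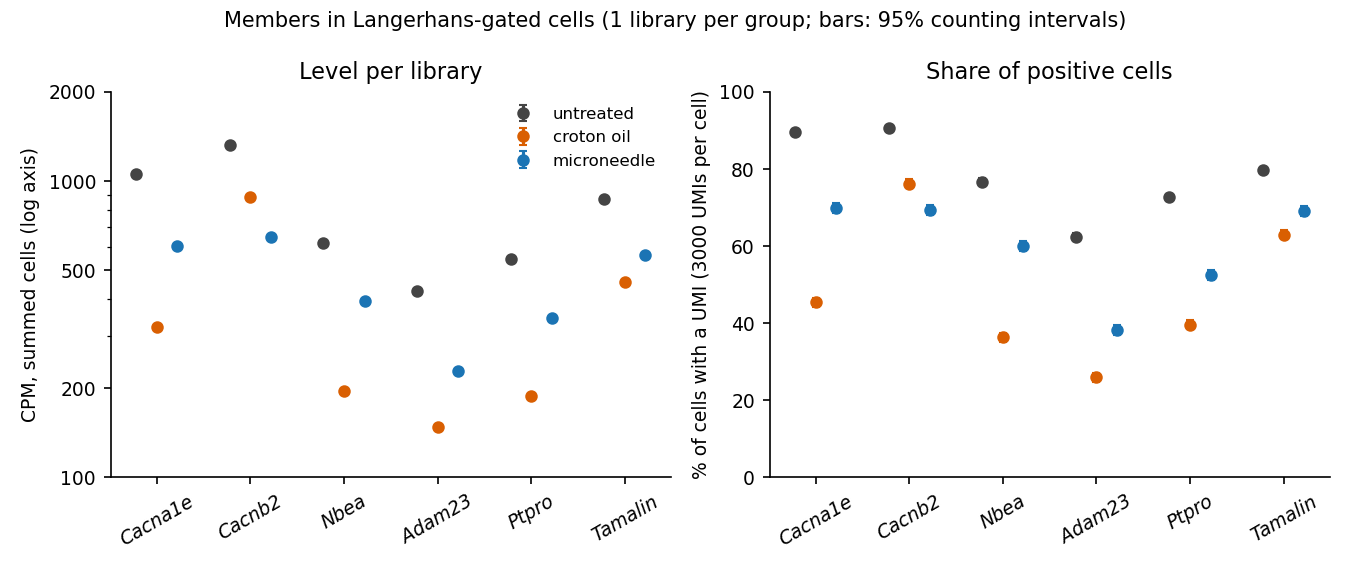
Levels of the 6 genes in Langerhans-gated cells as CPM on a log axis (left) and as the percentage of cells with a UMI after thinning to 3000 UMIs (right), with 1 point per library and 95% counting intervals, mostly smaller than the points. Untreated (grey) is highest for every gene, and only for Cacnb2 does croton oil (orange, 883 CPM) lie above microneedle (blue, 646 CPM).

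**Figure D2:**
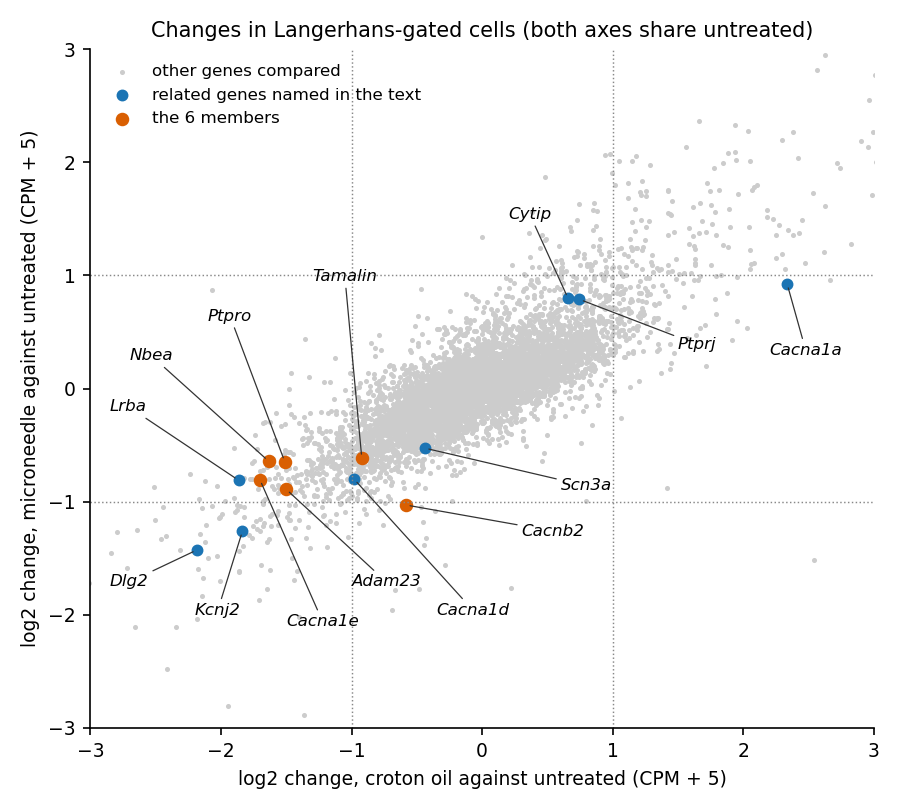
Change after croton oil (x axis) against change after microneedles (y axis), both as log2 of CPM + 5 against the same untreated library, for genes compared in both; 39 of 6587 genes lie outside the axes. The 6 members (orange) all lie at the lower left, with Cacnb2 below and to the right of the rest, and dotted lines mark 2-fold.

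The lower levels came with fewer positive cells, which a lower level gives by itself at a fixed depth. To set libraries of unlike depth side by side, each cell was thinned to 3000 UMIs, which left out 102 untreated, 32 croton oil and 59 microneedle cells as too shallow. Cacna1e was then detected in 89.7% (89.0% to 90.3%) of cells untreated, 45.4% (44.1% to 46.7%) after croton oil and 69.9% (68.6% to 71.1%) after microneedles, and unthinned in 98.8%, 72.6% and 93.7%. For Cacnb2 the thinned shares were 90.6%, 76.2% and 69.4%, in the same order as its CPM, and the unthinned shares were 98.5%, 93.5% and 92.1%. As a background for free RNA, 0 of 53 thinned neutrophil-gated croton oil cells (median depth before thinning 3079.5 UMIs) had a Cacna1e UMI, and 5.33% of 225 such microneedle cells (median 3303 UMIs) did. Gated cells of the same libraries were above this, and the untreated library gave no neutrophil-gated class to compare.

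Adam23 had the lowest shares, 62.3% untreated, 26.0% croton oil and 38.3% microneedle (90.9%, 51.6% and 72.7% unthinned). Nbea was detected in 76.7%, 36.3% and 60.1% of thinned cells (96.2%, 70.8% and 91.1% unthinned), and Ptpro in 72.7%, 39.6% and 52.6% (95.9%, 79.5% and 90.8%). Tamalin kept the narrowest range, 79.8%, 63.0% and 69.1% (93.7%, 89.5% and 92.7%). The share was highest in the untreated library for each gene.

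Positive cells also held fewer UMIs of each member in both treated libraries, a value that likewise moves with the level. Positive thinned cells had a mean of 3.44 Cacna1e UMIs untreated, 2.00 after croton oil and 2.58 after microneedles. For Cacnb2 the means were 4.32, 3.31 and 2.80. Cells with 3 or more Cacna1e UMIs made up 52.4% untreated, 11.1% after croton oil and 27.5% after microneedles.

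Adam23 was more uneven between cells in the libraries where its level was lower. Its variance over its mean in thinned cells was 1.69 untreated, 2.37 after croton oil and 2.07 after microneedles, where cells of equal content would give a value near 1. Nbea read 1.502, 1.53 and 1.54, and Ptpro read 1.65, 1.39 and 1.91. Tamalin read 2.18, 1.81 and 1.79, and Cacnb2, the highest in each library, 2.56, 2.90 and 2.52. This ratio moves towards 1 as the mean falls, so a level or lower value at a lower mean does not show that cells were more even. Cacna1e went from 1.93 to 2.21 and 2.10. Its croton oil share of 45.4% was below the 59.6% that its mean would give if UMIs fell evenly over cells. The same held for every member in every library, as for Cacnb2 after croton oil (76.2% against 92.0%) and Cacna1e untreated (89.7% against 95.4%).

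Most untreated cells held nearly the whole set, a count that also moves with the levels. At 3000 UMIs the mean was 4.72 of 6 members per cell untreated, 2.87 after croton oil and 3.59 after microneedles, with medians of 5, 3 and 4. Cells with 5 or 6 members made up 62.8%, 8.39% and 26.7%. Cells with none or 1 member made up 0.386%, 12.5% and 6.59%. These shares depend on the depth: at 6000 UMIs, cells with 5 or 6 members made up 90.4%, 28.1% and 57.2%, and those with none or 1 made up 0.121%, 2.43% and 1.34%, in the same order of libraries.

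**Figure D3:**
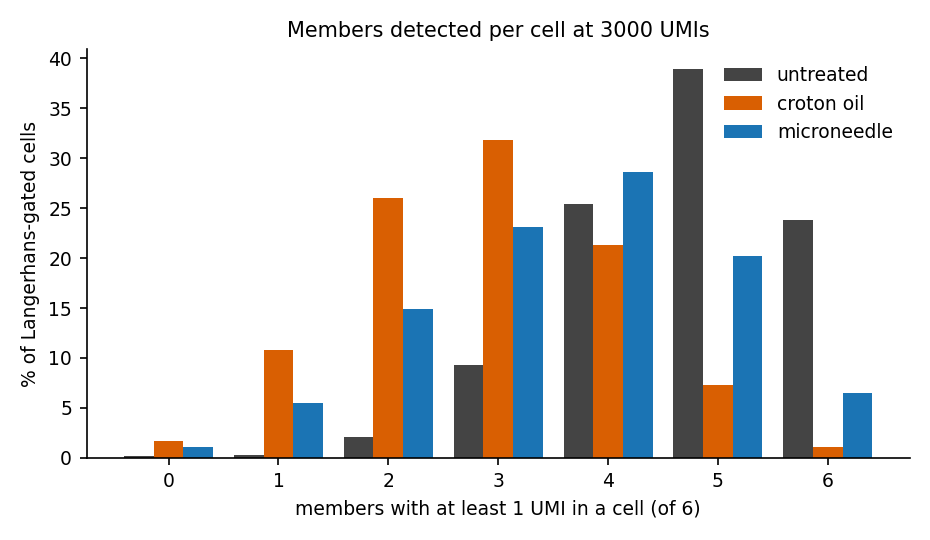
Percentage of Langerhans-gated cells (y axis) by the number of the 6 members with at least 1 UMI after thinning to 3000 UMIs (x axis), 1 bar per library. Untreated cells peak at 5 members (38.98%), croton oil cells at 3 (31.8%) and microneedle cells at 4 (28.7%).

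The members were lower together between libraries, and their counts had low correlations cell by cell. Over the 15 pairs, the median Pearson r of thinned counts was 0.03 untreated (8549 cells), 0.03 after croton oil (5889 cells) and 0.07 after microneedles (5236 cells), and 11, 12 and 15 pairs were above 0. All cells of a library share 1 preparation, and at 3000 UMIs most counts are small, which bounds r. The number of cells with both genes of a pair was 0.989 to 1.02 times the product of their shares in untreated cells, 0.903 to 1.12 times in croton oil cells and 1.02 to 1.08 times in microneedle cells. Where most cells are positive, as in the untreated library, this ratio cannot lie far from 1.

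The highest r in each library belonged to the 2 channel subunits, Cacna1e and Cacnb2, at 0.23 untreated, 0.17 after croton oil and 0.22 after microneedles. In croton oil cells with a Cacna1e UMI, 81.3% had a Cacnb2 UMI, against 72.0% of those without. Cacna1e and Nbea stood at 0.15, 0.14 and 0.18. Cacna1e and Adam23 stood at 0.11 untreated and 0.13 after microneedles but at -0.04 after croton oil. Pairs with Tamalin stayed between -0.07 and 0.06 in every library.

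Cacna1e and Adam23 parted most clearly outside the gate, in cells carrying the migration genes Ccr7 and Fscn1, the chemokine receptor and actin bundler of dendritic cells that leave the skin. Cells outside the gate were sorted by fixed amounts of marker UMIs. Migration gene-gated cells numbered 658 in the croton oil and 153 in the microneedle library, with 8 in the untreated library, too few to use. There Cacna1e read 12.2 CPM (10.1 to 14.6) after croton oil and 27.4 CPM (21.3 to 34.7) after microneedles, 3.78% and 4.54% of the level in gated cells of the same library. Adam23 read 329 CPM (318 to 341) and 409 CPM (384 to 435), which is 223% and 179% of the gated level. The calcium channel pore gene and the LGI receptor gene thus stood on opposite sides of the gated level in these cells.

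The other members were in between. Cacnb2 read 560 and 389 CPM (63.5% and 60.1% of the gated level), Nbea 124 and 159 CPM (63.6% and 40.4%), Ptpro 84.9 and 155 CPM (45.2% and 44.7%), and Tamalin 234 and 147 CPM (51.2% and 26.1%). Cd207 was at 42.1% and 31.7% of the gated level and Cd74 at 19.6% and 7.94%. At 3000 UMIs, 2.29% (croton oil) and 4.64% (microneedle) of migration gene-gated cells had a Cacna1e UMI (9.73% and 20.9% unthinned), near the share in neutrophil-gated cells, and 47.9% and 59.6% had an Adam23 UMI (79.8% and 85.6% unthinned).

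The same split was present inside the gate. The 135 gated croton oil cells with migration genes read 38.2 CPM of Cacna1e and 387 CPM of Adam23, against 329 and 135 CPM in the 5044 gated cells with neither migration nor cell cycle genes. The 26 such microneedle cells read 199 and 368 CPM, against 609 and 211 CPM. In the untreated library only 13 gated cells carried migration genes, with 145 CPM of Cacna1e and 562 CPM of Adam23, against 1068 and 430 CPM. Leaving these cells out gave croton oil changes of -1.67 for Cacna1e and -1.56 for Adam23.

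Other subsets of gated cells differed less. Cells with cell cycle genes read 1029 CPM of Cacna1e untreated, 326 after croton oil and 595 after microneedles, close to the 1068, 329 and 609 CPM of the cells with neither cell cycle nor migration genes. Adam23 was higher in cycling cells of the treated libraries, at 177 against 135 CPM and 262 against 211 CPM, and not in untreated cells, at 412 against 430 CPM. Cells with a Cd207 UMI among 3000 read 362 CPM of Cacna1e after croton oil and those without read 285 CPM, while the values were 1056 and 1064 CPM untreated and 623 and 567 CPM after microneedles. Cells in the lowest 25% by MHC class II share read 1214 CPM of Cacna1e untreated and those in the highest 25% 838 CPM, and the microneedle values were 695 and 465 CPM, whereas in croton oil cells they were 310 and 296 CPM. Gated cells at 2% to 2.5% MHC class II read 874 CPM untreated (69 cells), 148 after croton oil (106 cells) and 415 after microneedles (46 cells). Cells just outside, at 1.5% to 2%, read 680, 73.8 and 552 CPM.

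At the Epcam edge of the gate all libraries read less Cacna1e than the gate as a whole. In the untreated library the difference went past the counting interval only just outside the gate. Gated croton oil cells with exactly 2 Epcam UMIs (212 cells) read 72.1 CPM of Cacna1e and 261 CPM of Adam23, and MHC class II-high cells with 1 Epcam UMI (185 cells) read 56.1 and 367 CPM. The 40 microneedle cells just inside read 391 and 161 CPM, and the 37 just outside 231 and 507 CPM, the Adam23 value resting on 68 UMIs in 35.1% of these cells. In the untreated library the 59 cells just inside read 980 (857 to 1116) and 298 CPM, and the 50 just outside 677 (554 to 819) and 255 CPM. The whole untreated gate read 1058 and 427 CPM. Median depths were 9794.5 and 9189 UMIs for croton oil but 2814 and 1636.5 UMIs for untreated and 1750.5 and 1497 UMIs for microneedle edge cells. The 218 MHC class II-high Epcam-low croton oil cells, those with at most 1 Epcam UMI that met no other class, read 87.3 CPM of Cacna1e, 328 of Adam23 and 810 of Cacnb2. Cells with 3 or more UMIs of Ccr7 and Fscn1 had been sorted out of them beforehand. The part of Epcam level in these values was not tested.

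Relative to the gated level, Ptpro was the highest member in monocyte/macrophage-gated cells, while in T cell-gated cells it was not set apart from Tamalin. Monocyte/macrophage-gated microneedle cells (297 cells) read 142 CPM of Ptpro (127 to 159), 41.1% of the gated level, while the other 5 members were at 0.465% to 3.32% of theirs. Thinned to 3000 UMIs, 31.8% (25.9% to 38.1%) of 239 of these cells had a Ptpro UMI (51.9% of all 297 unthinned), against 2.93% with Cacna1e and 0.418% with Nbea. T cell-gated croton oil cells (131 cells) read 61.2 CPM of Ptpro, 107 of Tamalin and 80.2 of Cacnb2, with Cacna1e, Nbea and Adam23 at 5.28, 8.44 and 6.33 CPM. Ptpro stood at 32.6% (24.7% to 42.1%) of its gated level and Tamalin at 23.3% (19.0% to 28.4%), with overlapping intervals. Thinned to 3000 UMIs, 14.6% of 123 of these cells had a Ptpro UMI and 16.3% a Tamalin UMI. Neutrophil-gated cells were low for every member, with at most 63.2 CPM after croton oil and 58.3 CPM after microneedles, both for Cacnb2.

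Keratinocyte-gated cells read the members at 13.9% to 24.7% of the gated level in the untreated library (177 cells), 8.41% to 12.6% in the croton oil library (201 cells) and 12.6% to 31.1% in the microneedle library (81 cells). Cd74, a Langerhans gene, stood at 15.8%, 7.97% and 13.7% in the same cells and Cd207 at 15.7%, 6.48% and 19.4%. Doublets and free RNA were not told apart from keratinocyte transcripts, and their part in these levels was not tested. MHC class II-low remainder cells, which met no class, kept 806 CPM of Cacna1e untreated (143 cells), 65.2 after croton oil (278 cells) and 265 after microneedles (180 cells). Cells that met 2 or more classes are not described.

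**Figure D4:**
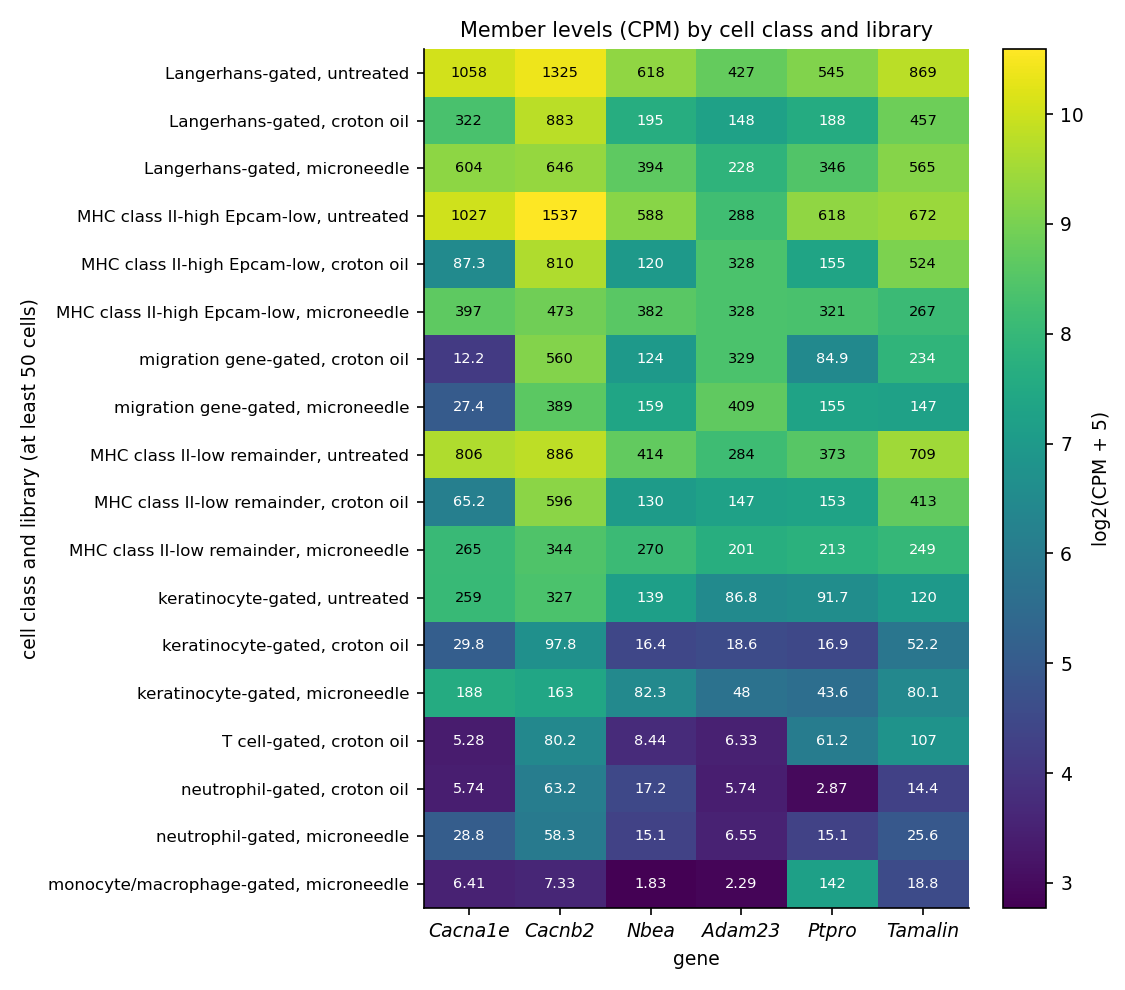
Levels of the 6 genes (columns) as CPM, printed in each cell and coloured as log2(CPM + 5), in each cell class and library with at least 50 cells (rows). Cacna1e is low in migration gene-gated cells (12.2 and 27.4 CPM) where Adam23 is high (329 and 409 CPM), and Ptpro reads 142 CPM in monocyte/macrophage-gated cells where the other members are below 20 CPM.

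Relatives and partners of the members were followed through gene lists. Of 26 voltage-gated calcium channel subunit genes, 4 reached 20 CPM in gated cells, and 17 stayed below 1 CPM. Besides the 2 members these were Cacna1d, an L-type pore, with 135, 66.1 and 75.4 CPM (changes -0.98 and -0.80), and Cacna1a, the P/Q-type pore, with 6.99, 55.5 and 17.8 CPM (2.34 and 0.93). Cacna1a was thus highest where Cacna1e was lowest, and in migration gene-gated cells it read 241 CPM (croton oil) and 285 CPM (microneedle). Without the 2 members, 0 of 2 list genes compared were at least 2-fold lower and 1 was at least 2-fold higher after croton oil (median 0.68), where 5.51% and 5.5% of all genes were. After microneedles only Cacna1d was compared besides the members.

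Of 52 sodium, potassium and HCN channel genes, 41 stayed below 1 CPM in every library. Scn3a, a neuronal sodium channel pore, read 291, 213 and 200 CPM (changes -0.44 and -0.53). Kcnj2, an inward-rectifier potassium channel, read 41.7, 8.07 and 14.5 CPM (-1.84 and -1.26), further below the untreated level than any member after croton oil.

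Of 23 genes for other calcium entry and release, 13 were compared, and their medians were 0.00 after croton oil and 0.15 after microneedles. The intracellular pump gene Atp2a3 read 32.3, 8.67 and 20.1 CPM (-1.45 and -0.57), 1 of 13 at least 2-fold lower after croton oil, where 5.51% of all genes were. Trpv2, a cation channel, was higher after croton oil with 52.5, 115 and 77.3 CPM (1.07 and 0.52), and the plasma membrane pump Atp2b4 after microneedles with 33.0, 33.0 and 91.2 CPM (0.00 and 1.34). Each was the 1 of 13 at least 2-fold higher in its contrast, where 5.5% and 3.83% of all genes were. The most abundant pump gene, Atp2b1, read 344, 537 and 464 CPM. The medians of this list lay close to those of all genes compared, -0.03 and 0.03.

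Of 9 BEACH domain genes, 7 were compared besides Nbea, and 2 of these 7 were at least 2-fold lower after croton oil (median -0.60), where 5.51% of all genes were. None was past 2-fold after microneedles (median -0.09), where 1.75% of all genes were lower and 3.83% higher. Lrba, the BEACH protein that recycles CTLA-4, read 707, 190 and 401 CPM (-1.87 and -0.81), near to Nbea in both contrasts, and Nsmaf read 103, 39.7 and 61.6 CPM (-1.27 and -0.70). Wdfy3, an autophagy adaptor, read 154, 98.4 and 131 CPM.

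Close relatives and partners of the remaining members were divided in direction. Adam22, the other LGI receptor among the 2 of 7 list genes compared, read 163, 112 and 128 CPM (-0.52 and -0.33). Ptprj, a phosphatase of the same R3 group as Ptpro, was higher after both treatments, at 664, 1116 and 1150 CPM (0.75 and 0.79). Cytip, the leukocyte relative of Tamalin, was higher as well, at 846, 1339 and 1474 CPM (0.66 and 0.80), as were its partners Cyth1, at 67.6, 132 and 116 CPM (0.92 and 0.74), and Cyth2, at 27.2, 43.8 and 33.0 CPM. Cyth3, named after its values were seen, was lower in both like Tamalin, at 136, 91.1 and 103 CPM (-0.55 and -0.38). None of these reached 2-fold.

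The synaptic vesicle, active zone and postsynaptic list held 46 genes, 23 of them below 1 CPM. After croton oil 2 of 10 compared were at least 2-fold lower and none higher (median -0.31), where 5.51% and 5.5% of all genes were. After microneedles 1 of 11 was lower and none higher (median -0.04), where 1.75% and 3.83% of all genes were. Dlg2, a postsynaptic scaffold, read 59.1, 9.11 and 18.8 CPM (-2.18 and -1.43), but 490 CPM in the untreated MHC class II-low remainder and 260 CPM in untreated keratinocyte-gated cells, above its gated level. Homer1, a scaffold of metabotropic glutamate receptors, read 398, 180 and 341 CPM (-1.12 and -0.22), and Vamp1, a vesicle protein, 70.2, 45.2 and 79.2 CPM.

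Genes with the most similar pattern were sought over 18 groups of cells, each a class in a library with at least 50 cells, by Pearson r of log2(CPM + 5) with the mean standardized level of the members, among 11351 genes. The groups share libraries, and most of the range is between Langerhans-gated cells and leukocytes of other classes. Each member is part of that mean, which raises its own r, so the members' values are no support for a shared pattern. The members themselves stood between 0.86 (Ptpro) and 0.97 (Nbea). Even so, Cacna1e was at rank 125 and Ptpro at rank 132 of these genes, while Nbea was at rank 3. Chsy3, a chondroitin synthase, was first with an r of 0.984 and gated levels of 341, 144 and 189 CPM, followed by Scn3a (0.974), Ninl (0.970), Tnks (0.963), Pde4dip (0.963), H2-M2 (0.963), Stxbp5l (0.962), Rtn1 (0.960), Hectd2 (0.958) and Plpp1 (0.952). Likeness over classes did not carry over to the treatments for all of them: H2-M2, a nonclassical MHC gene, had changes of -1.21 and -1.12 and Stxbp5l, a syntaxin-binding protein, of -1.09 and -0.47, while Tnks stood at -0.35 and 0.27 and Plpp1 at -0.37 and 0.29.

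Gene span moved with the change after croton oil, and after microneedles the longest genes alone stood apart. Among 2341 genes under 20 kb the median change after croton oil was 0.25, with 3.37% at least 2-fold lower, and among 90 genes over 400 kb it was -0.63, with 32.2% at least 2-fold lower. After microneedles the medians were between -0.01 and 0.05 in each span class up to 400 kb, with 1.21% to 3.72% at least 2-fold lower, and -0.27 among 91 genes over 400 kb, with 7.69%. Cacna1e and Nbea are in the longest class and lie below its median in both contrasts, while Tamalin, with 11.8 kb, lies below a median above 0. Whether reads in introns were counted is not given in the sources used here, and the part of gene span in the members' changes was not tested. The nuclear RNA Malat1 read 14942, 12723 and 15148 CPM, Neat1 548, 576 and 539 CPM, and Kcnq1ot1 52.3, 31.9 and 47.4 CPM.

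**Figure D5:**
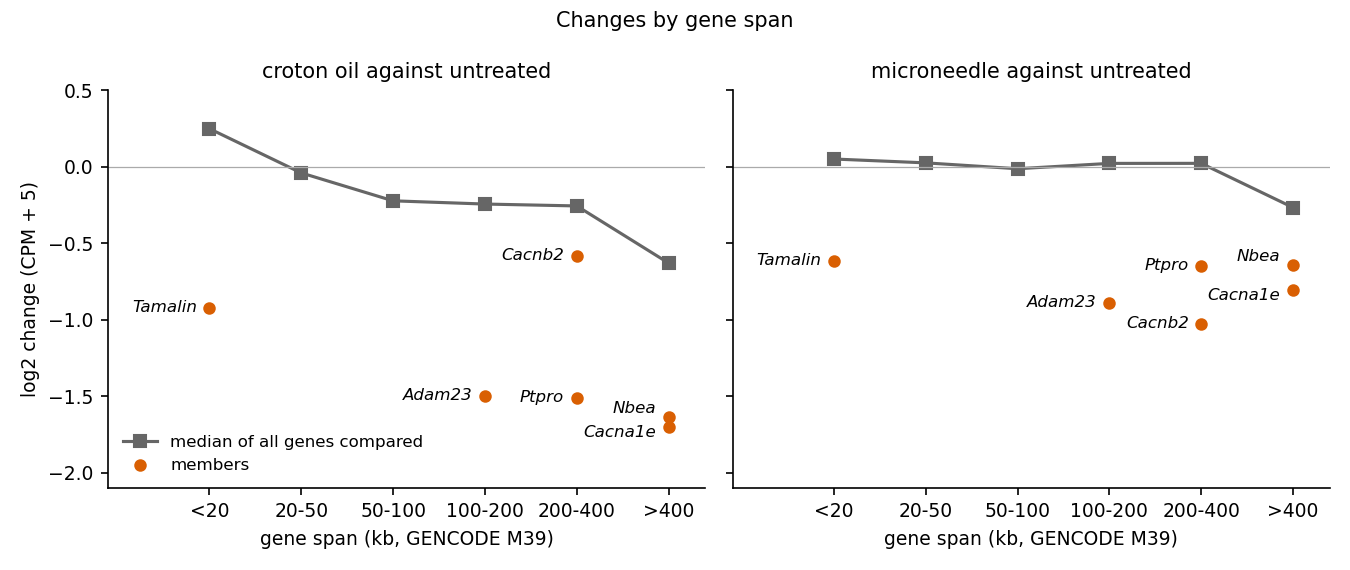
Median log2 change of all genes compared (grey squares) by gene span in kb (x axis), with the 6 members (orange) at their own span, for croton oil (left) and microneedle (right) against untreated. The grey line goes from 0.25 to -0.63 on the left and from 0.05 to -0.27 on the right, and each member lies below the median of its span class in both contrasts.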

How the data were processed

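Deposited values were UMI counts per gene and cell from Chromium Single Cell 3' v3.1 libraries, made by the authors with Cell Ranger 8.0 on GRCm39, per the submitters' processing notes (8.0.0 per the file headers). UMIs remove PCR copies. The counts were whole numbers and not normalized. The setting for intronic reads is not given in the sources used here.

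Cells with at least 500 genes and at most 10% mitochondrial UMIs were kept. Scrublet (scanpy 1.11.5) marked 1, 0 and 0 cells as doublets by its automatic threshold, which was taken as not having worked, so the top-scoring 0.8% per 1000 cells were removed (773, 532 and 376 cells). Gated UMIs were summed per library (107355120, 81268717 and 96387728 UMIs). Genes with at least 20 CPM in 1 of the libraries compared entered a contrast, and 2-fold was the size that was counted. CPM intervals are exact Poisson, and those of ratios and shares exact binomial. With 1 library per group no test was run.

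Outside the gate, classes were set by the share of UMIs in markers: keratinocyte 1%, neutrophil 1.5%, T cell 0.25% and monocyte/macrophage 0.1%, and by at least 3 UMIs of Ccr7 and Fscn1 for migration. These amounts were set after seeing the data. Of the markers, Tcrg-C1 was not listed under its symbol. Cell cycle cells had at least 2 UMIs of Mki67 and Top2a. The members and gene lists were chosen with earlier results of these data known. Genes named from a list are its 3 furthest from 0 in either contrast and its most abundant one, among those at 20 CPM or more, and the 10 genes with the most similar pattern are also named. A result that this rule covers is not reported here. Of 34289 feature identifiers, 33767 occur in GENCODE M39. TMM factors came from edgeR 4.0.16 in R 4.3.3. Other work used Python 3.11.15, numpy 2.4.6, scipy 1.17.1, pandas 2.3.3 and matplotlib 3.10.9. The summing, thinning and ratio steps were tested on simulated counts.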

Additional observations from a re-analysis of the deposited data

How the results depend on the processing

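The 17 alternatives for levels covered the gate, cell filter, doublets, scaling, pseudocount and low-value filter, and none turned the direction of a member in either treated library against untreated. Over them the member median ranged from -1.55 to -1.40 after croton oil and from -0.78 to -0.71 after microneedles. With a filter of 50 CPM, 228 genes were at least 2-fold lower after croton oil (377 with 20 CPM) and 67 after microneedles (117 with 20 CPM), since fewer genes were compared. Without cells carrying cell cycle genes, 2 members were at least 2-fold lower after microneedles in place of 1, where 1.86% of 6715 genes were. Between croton oil and microneedles, 1 member in place of 0 was 2-fold apart with Epcam at 1 UMI or more, no Epcam requirement, MHC class II at 1% or more, no doublet removal or a pseudocount of 1 CPM, where 1.05% to 1.51% of all genes were lower. With the mean of per-cell CPM 2 members were, where 1.10% of all genes were lower. The cause was not tested. The remaining 76 counts, of members past 2-fold and of genes at least 2-fold lower than untreated, stayed within 1.5 times. Lower genes between croton oil and microneedles were not among these counts, and TMM scaling took them from 69 to 45. Without a low-value filter all 34289 genes were compared. The share of lower genes was then 1.38% after croton oil and 0.43% after microneedles, and 0.26% between the treated libraries. TMM scaling moved the median of all genes after croton oil from -0.03 to 0.08 and the share of higher among 2-fold calls from 49.9% to 63.3% (60.8% to 75.3% between croton oil and microneedles), and Cacna1e stood at -1.59 there. Of the changes and shares of single members, the member medians and the median r of pairs, 385 counted as the same and 212 as moved. Single members were held to their counting interval. For the member medians and the median r, any difference counted as moved. The untreated library had the highest share of positive cells for every member under each gate and depth tried. No paired analysis was possible because each group has 1 library and no test was run. With no replicate libraries, the counting intervals do not limit differences between animals.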
